A study of Mus musculus with 9 samples.

Results

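The miR-17, miR-18 and miR-19 seed families were followed in mice that breathed formaldehyde, in the olfactory bulb, where sensory axons from the nose end. Members were a given list of probes by name: guide strands from the miR-17, miR-106a and miR-106b clusters with a miR-17, miR-18 or miR-19 seed, without miR-18b-5p, together with miR-17-3p, the opposite arm of the miR-17 hairpin. This gave 10 members among 1027 mouse microRNA (miRNA) probes. Male ICR mice, an outbred strain, were 8 weeks old. One group breathed 3 ppm formaldehyde for 6 hours on a single day (FA 1 day, 3 arrays, labelled as replicates 1, 2 and 4), another did so on 7 consecutive days (FA 7 days, 3 arrays), and the control group was kept without formaldehyde (3 arrays). Both exposed groups are set against the same control arrays, and the labels do not say on which day the control mice were dissected or whether each array holds 1 animal.

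A miRNA recognises messenger RNAs mainly through its seed, bases 2 to 8 from its 5′ end, so miRNAs with one seed share many targets. The miR-17 cluster is transcribed as a single precursor that is cut into several hairpins, and it is known for driving proliferation and survival of progenitor cells, partly by repressing the cell-cycle inhibitor Cdkn1a and the pro-apoptotic gene Bcl2l11. Its paralogs on the X chromosome and chromosome 5 arose by duplication. The olfactory bulb takes up new interneurons throughout adult life, and the miR-17 cluster is known to act in neural progenitors.

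All 10 members matched RefSeq's miRNA table for the mouse build GRCm38.p6. The 6 hairpins of the miR-17 cluster lie at chr14:115043671-115044506 on the plus strand, the 6 of the miR-106a cluster at chrX:52741693-52742567 on the minus strand and the 3 of the miR-106b cluster at chr5:138165321-138165818 on the minus strand. The last lie within the span of Mcm7 (chr5:138164583-138172111), which encodes a subunit of the replicative helicase. The mature sequences are shown because a probe array has to tell near-identical members apart; the seed, bases 2 to 8, is in capitals. The 6 members with the miR-17 seed were as follows.
mmu-miR-17-5p: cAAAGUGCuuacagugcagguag
mmu-miR-20a-5p: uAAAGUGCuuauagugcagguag
mmu-miR-106a-5p: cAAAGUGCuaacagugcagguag
mmu-miR-20b-5p: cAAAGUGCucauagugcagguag
mmu-miR-93-5p: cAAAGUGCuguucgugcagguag
mmu-miR-106b-5p: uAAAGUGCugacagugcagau

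The miR-18 seed had 1 member here and the miR-19 seed had 2. The mature miR-19b-3p is made from 1 hairpin on chromosome 14 and 1 on chromosome X, so it belongs to 2 clusters.
mmu-miR-18a-5p: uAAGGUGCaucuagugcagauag
mmu-miR-19a-3p: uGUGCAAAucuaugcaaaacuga
mmu-miR-19b-3p: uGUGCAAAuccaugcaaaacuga

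Some of these differ by 1 base. Counted from the 5′ end, with the base of the member named first before the position, miR-17-5p and miR-106a-5p differ by U10A, and miR-19a-3p and miR-19b-3p by U11C. Between miR-17-5p and miR-20a-5p the differences are C1U and C12U, and between miR-20b-5p and miR-106a-5p they are C10A and U12C. Whether a probe also binds its nearest relative cannot be told from the deposited values. The hairpin of miR-17, at chr14:115043671-115043754, is shown because both of its arms are members; the 5p and 3p arms are in capitals.
Mir17 hairpin: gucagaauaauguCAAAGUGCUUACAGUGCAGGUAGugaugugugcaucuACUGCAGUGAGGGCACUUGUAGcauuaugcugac

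Between 398 and 520 mouse probes were detected per array, at a foreground minus background intensity of at least 30, and the 462 probes seen on all arrays of 1 or more groups were tested. The 7 neuron markers, led by miR-124-3p, and the 5 markers of olfactory neurogenesis, the miR-200 family, were detected on all 9 arrays. A pair of arrays stood apart: control replicate 2 and FA 7 days replicate 3 deviated from the mean of the others by 0.91 and 0.68 (root mean square over the tested probes), and the remaining 7 by 0.27 to 0.47. Each member has 4 spots, 1 pair in the first 18 of the 36 printing blocks and 1 pair in blocks 19 to 36. These pairs differed by more than 2-fold for 24.9% of probes on FA 1 day replicate 2, 18.9% on FA 7 days replicate 3 and 16.4% on FA 7 days replicate 1, and for at most 9.81% on each other array. Among the tested members the shares on these arrays were 44.4% (4 members), 28.6% (2 members) and 0%, and at most 14.3% on each other array. In bulk tissue, fewer cells that make a miRNA and less of it per cell cannot be told apart.

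Of the 10 members, 9 passed the filter. The exception was miR-18a-5p, which was not detected on any array: its foreground minus background ran from -27.5 to 3.25, and it was not tested. Of the 9, 8 were detected on all arrays of control and of FA 1 day. The remaining one, miR-20b-5p, passed the filter only through the FA 1 day arrays. The values below are normalized log2 intensities unless foreground minus background is named, and each is read across arrays, not against another probe.

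**Figure D1:**
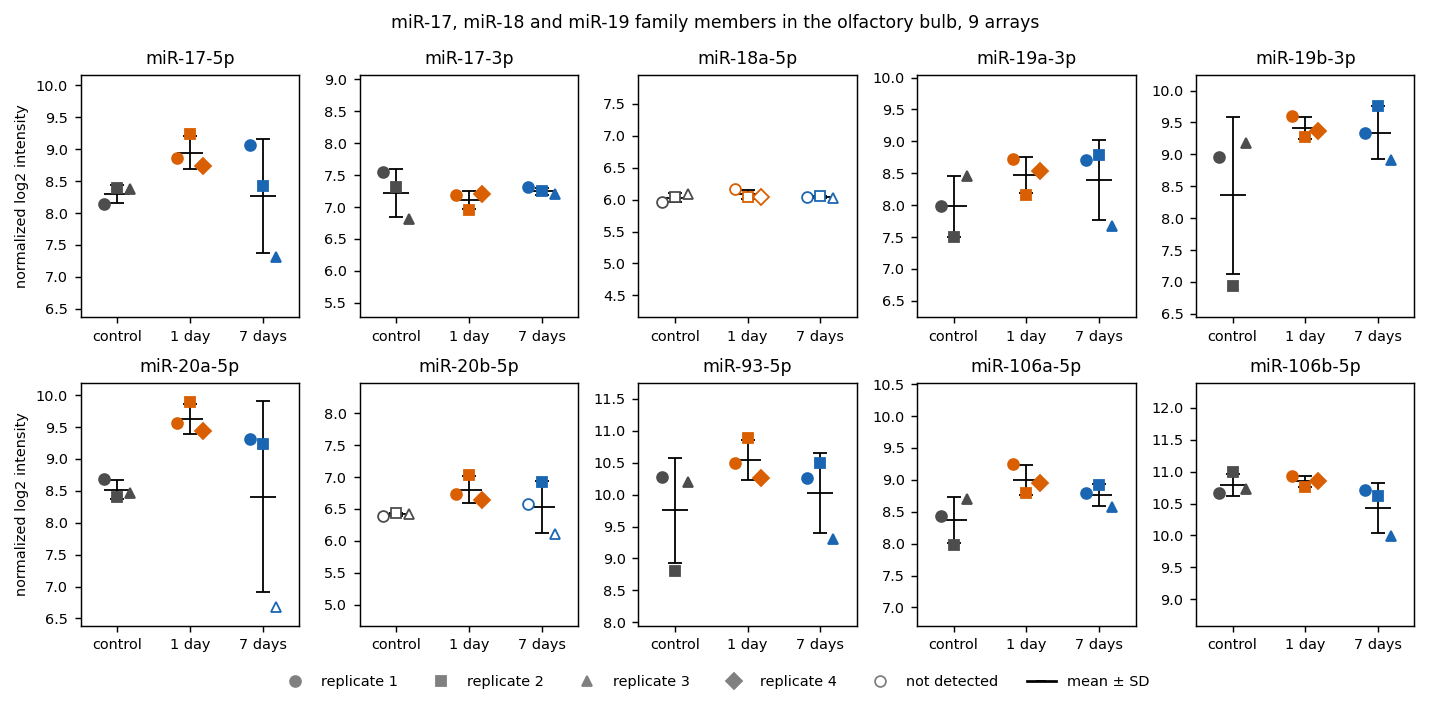
Normalized log2 intensity (y axes, each panel with its own range) of the 10 members on the 9 arrays, by group (x axis); symbols give the replicate number, open symbols arrays without detection, and lines the group mean ± SD. The FA 1 day arrays lie above the control arrays for miR-17-5p, miR-20a-5p, miR-20b-5p, miR-106a-5p and miR-19b-3p, and FA 7 days replicate 3 is the lowest array for miR-17-5p, miR-20a-5p, miR-20b-5p and miR-106b-5p. miR-20b-5p passed the filter only through FA 1 day.

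The first pair with the miR-17 seed, miR-17-5p and miR-20a-5p, comes from the miR-17 cluster. On control replicates 1, 2 and 3 miR-17-5p lay at 8.14, 8.40 and 8.38, on FA 1 day replicates 1, 2 and 4 at 8.87, 9.24 and 8.73, and on FA 7 days replicates 1, 2 and 3 at 9.06, 8.43 and 7.30. In the same order miR-20a-5p lay at 8.68, 8.40 and 8.46, then at 9.56, 9.89 and 9.44, then at 9.32, 9.23 and 6.68. For both miRNAs the control arrays lay close together, all FA 1 day arrays lay above them, and the FA 7 days arrays ran from above the controls to below them. Foreground minus background of miR-20a-5p was 245.5 to 330.25 on the control arrays, 612.5 to 790.25 after 1 day, and 823, 501 and 18.3 after 7 days, so that it was not detected on FA 7 days replicate 3. There miR-17-5p had 61.5, against 649 and 262 on the other FA 7 days arrays. A single spot of miR-20a-5p on control replicate 3 read -130 where the other spots read 363, 382 and 367, and the mean of spots on that array is pulled down by it.

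The members from the X chromosome are miR-106a-5p and miR-20b-5p. miR-106a-5p lay at 8.43, 7.98 and 8.69 on the control arrays, at 9.25, 8.79 and 8.95 after 1 day and at 8.79, 8.92 and 8.58 after 7 days. Its lowest FA 1 day array lay just above its highest control array, and the FA 7 days arrays overlapped both groups. On control replicate 2 its spots of blocks 1 to 18 read 34 and 26, and those of blocks 19 to 36 read 378 and 427. miR-20b-5p was dim: foreground minus background was 16.3, 29.75 and 18.8 on the control arrays, 37.5, 70.75 and 38.5 after 1 day, and 29.75, 49.5 and -5 after 7 days. It was thus detected on 0 of 3 control arrays, 3 of 3 FA 1 day arrays and 1 of 3 FA 7 days arrays, with 2 arrays just under the detection limit.

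From the miR-106b cluster, miR-93-5p lay at 10.27, 8.81 and 10.19 on the control arrays, at 10.50, 10.88 and 10.26 after 1 day and at 10.26, 10.50 and 9.31 after 7 days. One control array, replicate 2, and one exposed array, FA 7 days replicate 3, lay well below the rest, and the 3 groups overlapped. miR-106b-5p lay at 10.66, 10.99 and 10.73, then at 10.93, 10.77 and 10.85, then at 10.70, 10.61 and 9.98. After normalization its FA 1 day arrays lay within the range of the controls, and the FA 7 days arrays lay below the FA 1 day arrays. Its foreground minus background on FA 7 days replicate 1, 2724.5, was above that of all FA 1 day arrays (1582.75 to 1882.25). On FA 1 day replicate 2 the spots of miR-106b-5p read 442 and 581 in blocks 1 to 18 and 2458 and 2850 in blocks 19 to 36; on the control arrays the same spots ran from 1262 to 1695.

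**Figure D2:**
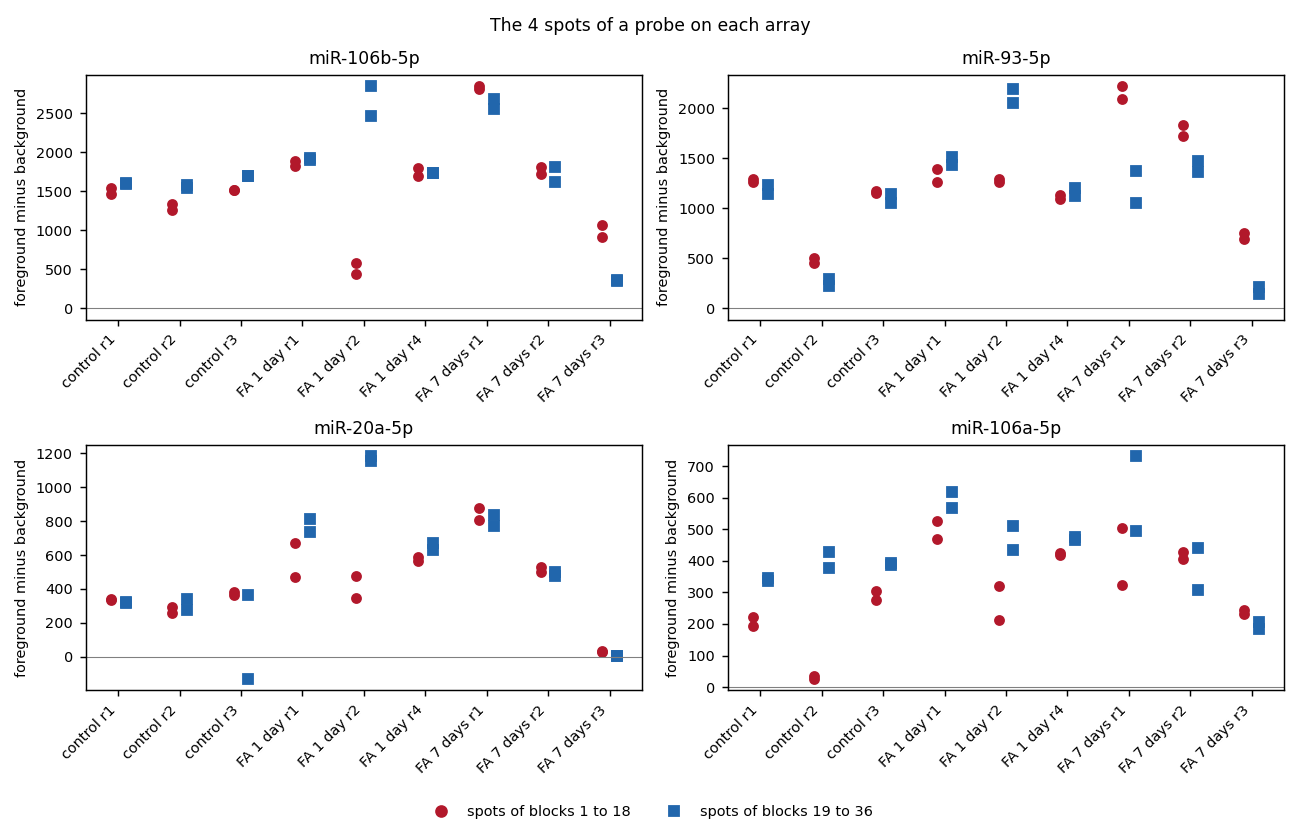
Foreground minus background intensity (y axis) of the 4 spots of 4 members with the miR-17 seed on each array (x axis, r for replicate); circles are spots of blocks 1 to 18 and squares those of blocks 19 to 36. On FA 1 day replicate 2 the pairs of miR-106b-5p and miR-20a-5p lie far apart, on control replicate 2 those of miR-106a-5p, and on FA 7 days replicate 3 all 4 spots of miR-20a-5p lie near 0.

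With the miR-19 seed, miR-19a-3p lay at 7.98, 7.51 and 8.45 on the control arrays, at 8.72, 8.17 and 8.54 after 1 day and at 8.71, 8.79 and 7.67 after 7 days. All 3 groups overlapped. miR-19b-3p lay at 8.95, 6.94 and 9.18, then at 9.61, 9.27 and 9.36, then at 9.34, 9.76 and 8.92. Control replicate 2 was the low array, with foreground minus background of 70.75 against 402 and 511.5 on the other controls, and all of its 4 spots were low (49 to 99). The FA 1 day arrays lay above the 3 controls, the nearest by less than 0.1.

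The opposite arm of the miR-17 hairpin, miR-17-3p, varied least in normalized log2 intensity, a scale that compresses dim probes. It lay at 7.55, 7.31 and 6.81 on the control arrays, at 7.18, 6.95 and 7.21 after 1 day and at 7.31, 7.25 and 7.20 after 7 days, so that the FA 1 day and FA 7 days arrays both lay within the range of the controls. The lowest control value includes 1 spot at -74 beside spots of 57 to 71. From its lowest to its highest array miR-17-3p spanned 1.67-fold, whereas miR-19b-3p spanned 7.04-fold, from control replicate 2 to FA 7 days replicate 2. miR-20a-5p spanned at least 8.01-fold, with FA 7 days replicate 3 set at the lowest value of any detected probe on that array. These spans are not comparable, because miR-17-3p was dim, with foreground minus background of 30 to 123.25 over the arrays. The offset of 50 used in background correction narrows the span of such a probe more than that of a bright one. In the ratios deposited by the authors miR-17-3p spanned a wider fold range than miR-106a-5p and miR-106b-5p.

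FA 1 day minus control addresses these miRNAs after 1 exposure. The counts here and in the next comparisons are over the 8 members other than miR-20b-5p, which passed the filter only through FA 1 day. After 1 day, 7 of the 8 lay higher than in control and 1, miR-17-3p, lay lower, while 57.4% of all 462 tested probes lay higher. The median log2 difference over the 8 was 0.63, against 0.06 over all tested probes. For 4 of the 8, miR-17-5p, miR-20a-5p, miR-106a-5p and miR-19b-3p, all FA 1 day arrays lay above all controls, as they did for 10.6% of all tested probes; none lay wholly below the controls (4.33% of probes). None of the 9 tested members passed the limma test after Benjamini-Hochberg adjustment, nor did any other probe (0%).

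The largest differences were those of miR-20a-5p, 1.12 ± 0.61 (SE; 8.52 ± 0.15 in control and 9.63 ± 0.23 after 1 day, mean ± SD, n = 3 each), and miR-19b-3p, 1.05 ± 0.53 (8.36 ± 1.23 and 9.41 ± 0.18), with limma's adjusted p of 0.679 and 0.677. In rank they were 8 and 12 of the 462 differences from the highest down. The value of miR-20a-5p was 0.56 from the spots of blocks 1 to 18 alone and 1.57 from those of blocks 19 to 36 alone. Then came miR-93-5p (0.79 ± 0.44), miR-17-5p (0.64 ± 0.39), miR-106a-5p (0.63 ± 0.23) and miR-19a-3p (0.50 ± 0.35). From blocks 1 to 18 alone miR-93-5p had 0.42 and miR-17-5p 0.44, and from blocks 19 to 36 alone 1.17 and 0.77. No difference is given for miR-20b-5p, not detected on any control array, because it had to be detected on FA 1 day to be tested. miR-106a-5p, with 1.11 from blocks 1 to 18 and 0.36 from blocks 19 to 36, was the 1 member with an unadjusted p under 0.05 (adjusted p = 0.636, limma), where 6.28% of all probes had one. The smallest adjusted p of any probe was also 0.636.

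The members nearest to 0 were miR-106b-5p and miR-17-3p. miR-106b-5p differed by 0.06 ± 0.22 (95% interval -0.45 to 0.56), and miR-17-3p by -0.11 ± 0.21 (-0.59 to 0.37). With the spots of blocks 1 to 18 alone, which include the low pair on FA 1 day replicate 2, the difference of miR-106b-5p was -0.44, and with those of blocks 19 to 36 alone it was 0.21. The interval of miR-20a-5p, -0.26 to 2.495, holds the differences of all 9 members, and differences between members were not tested.

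**Figure D3:**
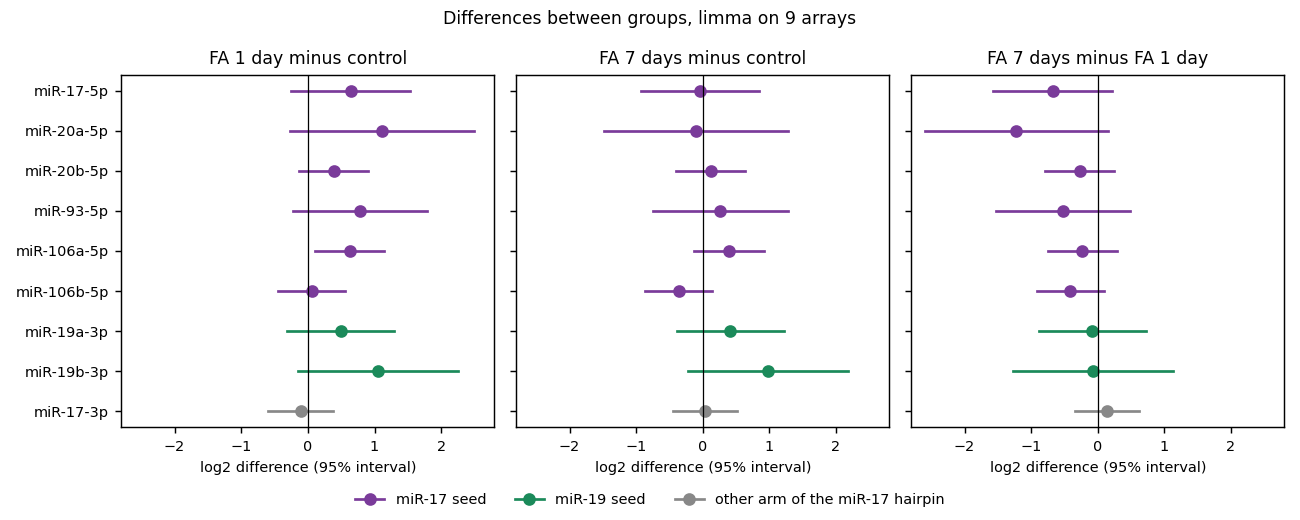
Log2 differences between groups (x axes) of the 9 tested members in the 3 comparisons, as points with limma's 95% intervals, coloured by seed. After 1 day the points of 8 members lie to the right of 0, with only the interval of miR-106a-5p clear of it, and in FA 7 days against FA 1 day 8 points lie to the left; miR-20b-5p is among the 8 both times and passed the filter only through FA 1 day.

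The control array that stands apart bears on part of this. Without control replicate 2 the differences after 1 day were 0.34 for miR-19b-3p, 0.31 for miR-93-5p, 0.26 for miR-19a-3p and 0.43 for miR-106a-5p. Those of miR-17-5p and miR-20a-5p were 0.69 and 1.06, close to the values with it. The median over the 8 was then 0.33, with 7 still above 0. Without FA 7 days replicate 3, which enters this comparison only through the shared estimate of the spread, miR-20a-5p had an adjusted p of 0.1 with limma, the smallest of any member in any setting that left out 1 array.

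Markers of other cell types, none of which was called, were followed on the same arrays. After 1 day their median log2 difference was 0.51 for vessel, 0.86 for red blood cell and 0.58 for leukocyte markers. It was 0.02 for neuron, 0.10 for olfactory neurogenesis, -0.22 for bulb interneuron and -0.49 for muscle markers. The sums below are not normalized, and the arrays differed in brightness. Median signal of the probes detected on all arrays was 224 on FA 7 days replicate 3 and 441 on FA 7 days replicate 1. All 4 vessel markers were tested, and their summed foreground minus background ran from 1727 to 4755 on the control arrays, 5355 to 5762.5 after 1 day and 1244.5 to 8185 after 7 days, the lowest on control replicate 2 and FA 7 days replicate 3. Of the 5 red blood cell markers listed, 3 had a probe by that name alone. Their sum ran from 4276.5 to 6397.5 in control, 4942 to 8948.5 after 1 day and 3324 to 8576 after 7 days. The 8576 was on FA 7 days replicate 1, where their mean normalized log2 intensity was 9.64, within the 9.11 to 9.83 of the controls. Left out of this sum was miR-486-5p, whose probe is also named for miR-3107-5p. Its normalized log2 intensity was 8.48 to 8.63 in control, 8.704 to 9.197 after 1 day and 8.641 to 9.075 after 7 days. All exposed arrays thus lay above all controls for that probe, the lowest FA 7 days array only just. Of all tested probes, 10.6% lay wholly above the controls after 1 day and 8.87% after 7 days. The leukocyte sum was 697 to 1350, 907 to 2439 and 839 to 1886, with miR-155-5p not detected on any array. Their part in the values of the members was not tested.

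FA 7 days minus control addresses the same miRNAs after the longer exposure. After 7 days, 5 of the 8 members other than miR-20b-5p lay above control and 3 below, beside 58.2% of all probes above, with a median log2 difference of 0.15 against 0.06 over all tested probes. None of the 8 lay wholly above the controls (8.87% of probes) or wholly below them (1.73%, in all 10.6%), and none of the 9 tested passed the test (0%), nor had any an unadjusted p under 0.05 (4.55% of probes). The members with the miR-19 seed lay highest: miR-19b-3p differed by 0.98 ± 0.53 (9.34 ± 0.42 after 7 days) and miR-19a-3p by 0.41 ± 0.35. miR-106a-5p differed by 0.39 ± 0.23 and miR-93-5p by 0.26 ± 0.44. No difference is given here for miR-20b-5p, detected on no control array and on 1 FA 7 days array. On the other side of 0 or near it lay miR-17-3p (0.03 ± 0.21), miR-17-5p (-0.04 ± 0.39), miR-20a-5p (-0.11 ± 0.61) and miR-106b-5p (-0.36 ± 0.22). Adjusted p in limma ran from 0.701 to 0.982.

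The values of miR-17-5p and miR-20a-5p after 7 days turn on 1 array. Without FA 7 days replicate 3 they differed from control by 0.44 and 0.76, and the median over the 8 members was 0.55, with 7 above 0. Their FA 7 days SD with that array was 0.89 and 1.50, against 0.14 and 0.15 in control. Without control replicate 2 miR-19b-3p differed by 0.27. For miR-93-5p the difference was -0.21 when control replicate 2 was left out and 0.62 when FA 7 days replicate 3 was. Without both arrays the median over the 8 was 0.39, and the differences were 0.49 for miR-17-5p, 0.70 for miR-20a-5p, 0.14 for miR-93-5p and -0.04 for miR-106b-5p.

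The last comparison sets the exposures against each other. After 7 days, 7 of the 8 members other than miR-20b-5p lay below their FA 1 day level, with a median of -0.32 (-0.0011 over all tested probes, 49.6% of them above 0). miR-17-3p was the exception, at 0.14 ± 0.21. The arrays of miR-20a-5p and miR-106b-5p did not overlap and were lower after 7 days, 2 of the 8, where 8.23% of all probes were so, and none was wholly higher (11.9%, in all 20.1%). miR-20a-5p differed by -1.22 ± 0.61 (limma, adjusted p = 0.609), a value that includes the array without detection, FA 7 days replicate 3, and by -0.36 without that array. miR-17-5p differed by -0.68 ± 0.39, miR-93-5p by -0.52 ± 0.44 and miR-106b-5p by -0.42 ± 0.22. miR-106a-5p differed by -0.23 ± 0.23, and miR-20b-5p, detected on 1 of the 3 FA 7 days arrays, had to be detected on FA 1 day to be tested, so its difference is left out here. The pair with the miR-19 seed stood near 0, miR-19a-3p at -0.08 ± 0.35 and miR-19b-3p at -0.07 ± 0.53.

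None of the members passed the test here (0% of all probes did), and none had an unadjusted p under 0.05 with limma, against 8.23% of all probes. Without FA 7 days replicate 3 the differences were -0.20 for miR-17-5p, -0.17 for miR-93-5p and -0.19 for miR-106b-5p. miR-19a-3p and miR-19b-3p then lay at 0.28 and 0.14, and the median over the 8 was -0.15, with 5 below 0. From the spots of blocks 1 to 18 alone miR-106b-5p differed by 0.23, in the other direction. A moderated F-test over the 3 groups also called no member (0% of probes), and its smallest p among them was 0.0644 for miR-106a-5p (adjusted p = 0.673, limma), where 6.71% of all probes had an unadjusted p under 0.05 and no member did.

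**Figure D4:**
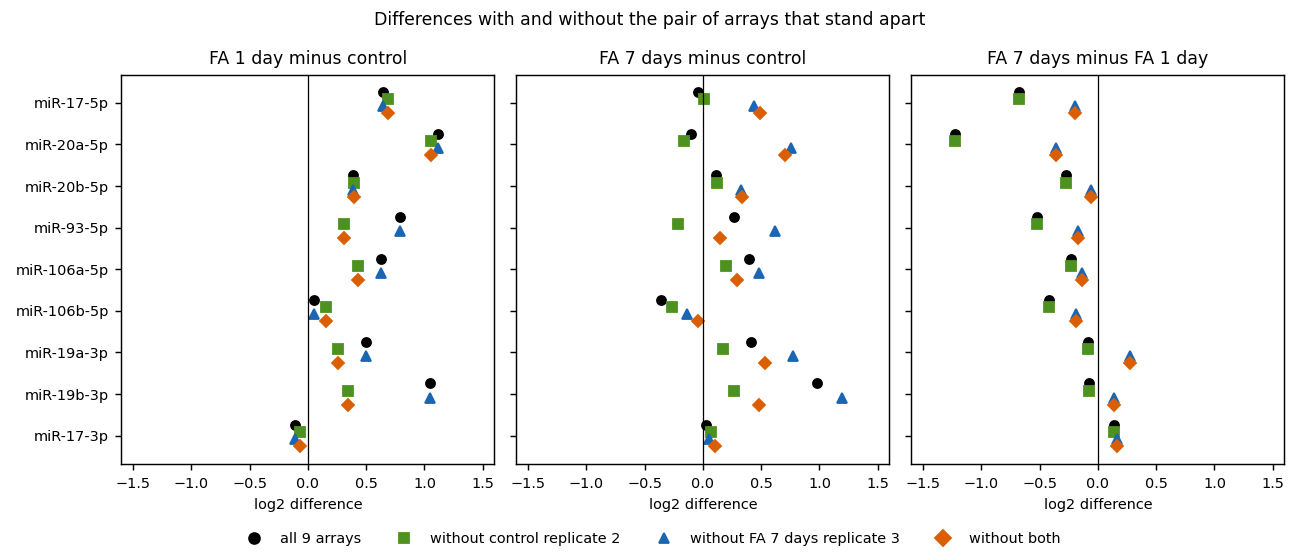
Log2 differences (x axes) of the 9 tested members with all 9 arrays and without 1 or both of the arrays that stand apart. In FA 1 day minus control the points of miR-19b-3p and miR-93-5p move toward 0 without control replicate 2, and in both comparisons with FA 7 days the points of miR-17-5p and miR-20a-5p move right without FA 7 days replicate 3.

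Set side by side by seed, the 5 members with the miR-17 seed other than miR-20b-5p had median differences of 0.64 after 1 day and -0.04 after 7 days against control, and of -0.52 between the exposures. Without FA 7 days replicate 3 the last 2 values were 0.49 and -0.19. The pair with the miR-19 seed had 0.77, 0.70 and -0.08, and without control replicate 2 it had 0.30 after 1 day and 0.22 after 7 days. On single arrays, the mean deviation of all 6 members with the miR-17 seed from the 9-array means was -0.14, -0.41 and -0.10 on the control arrays, 0.40, 0.53 and 0.24 after 1 day, and 0.21, 0.19 and -0.92 after 7 days. This mean includes miR-20b-5p, which passed the filter only through FA 1 day. In it replicates 1 and 2 of FA 7 days lay between the control and the FA 1 day arrays, and replicate 3 below all others. The miR-19 seed had -0.19, -1.43 and 0.16, then 0.51, 0.06 and 0.29, then 0.37, 0.62 and -0.37, so its lowest array was control replicate 2. Without both arrays that stand apart, the medians were 0.43, 0.29 and -0.19 for the 5 with the miR-17 seed and 0.30, 0.51 and 0.21 for the miR-19 seed, and the difference between the seeds was not tested.

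By cluster, and leaving out miR-19b-3p, which 2 clusters make, the 4 tested members of the miR-17 cluster had medians of 0.57, -0.01 and -0.38 in the 3 comparisons in the same order. Without FA 7 days replicate 3 the last 2 were 0.60 and -0.017. Of the pair from the miR-106a cluster miR-106a-5p alone has values for all 3, given above. The pair from the miR-106b cluster had 0.42, -0.05 and -0.47. Without FA 7 days replicate 3 the last 2 of these were 0.24 and -0.18, and without control replicate 2 the first 2 were 0.23 and -0.24. From the spots of blocks 1 to 18 alone the 3 values were -0.011, 0.066 and 0.077, and from those of blocks 19 to 36 alone 0.69, -0.22 and -0.91. Within the miR-106b cluster the differences after 1 day were not alike in size, miR-93-5p at 0.79 and miR-106b-5p at 0.06, and without control replicate 2 at 0.31 and 0.15.

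Likeness over the arrays was measured as the root mean square difference between the deviations of 2 members from their own 9-array means (a smaller value means more alike). The 16 pairs with one seed had a median of 0.47 and the 20 other pairs one of 0.51. The 14 pairs from a shared cluster had 0.61 and the 22 pairs from different clusters 0.43. The closest pair was miR-19a-3p and miR-106a-5p (0.24), which share neither seed nor cluster and differ by 14 single-base changes, insertions or deletions. miR-17-5p and miR-106a-5p, which differ by 1 base, had 0.51, and miR-19a-3p and miR-19b-3p, likewise 1 base apart, had 0.50. All pairs share the same 9 arrays, and members that vary little lie closer to any other. miR-20b-5p, which passed the filter only through FA 1 day, is among the members paired.

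**Figure D5:**
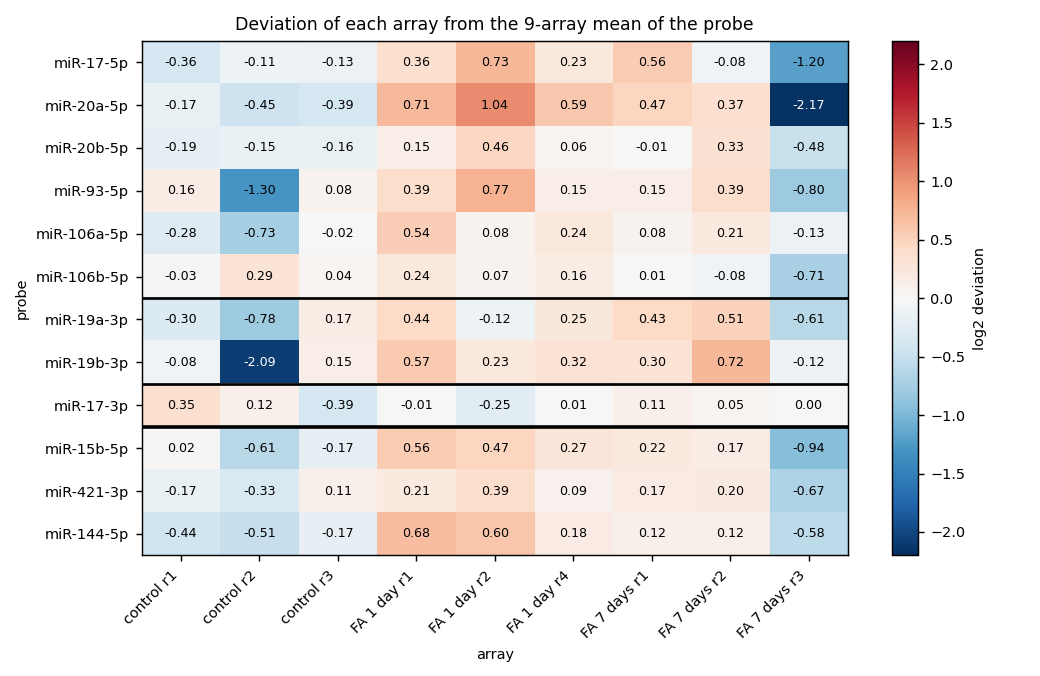
Log2 deviation of each array (columns, r for replicate) from the 9-array mean of the probe (rows), printed in each cell and coloured. Rows are the 6 members with the miR-17 seed, the pair with the miR-19 seed, miR-17-3p, and the 3 probes outside the families most like the miR-17 seed mean. The deepest blue cells are miR-20a-5p on FA 7 days replicate 3 (-2.17) and miR-19b-3p on control replicate 2 (-2.09).

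Control replicate 2 was low for some members and not for others. Its deviation was -2.09 for miR-19b-3p, -1.30 for miR-93-5p, -0.78 for miR-19a-3p and -0.73 for miR-106a-5p, but -0.11 for miR-17-5p and 0.29 for miR-106b-5p. On FA 7 days replicate 3 the order differed, with -2.17 for miR-20a-5p, -1.20 for miR-17-5p, -0.80 for miR-93-5p, -0.71 for miR-106b-5p and -0.61 for miR-19a-3p, and -0.13 and -0.12 for miR-106a-5p and miR-19b-3p. The near-identical miR-17-5p and miR-106a-5p therefore parted on that array by more than a log2 unit.

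The arms of the miR-17 hairpin come from 1 precursor. The log2 difference of miR-17-5p over miR-17-3p, relative to its mean in control, was -0.49, 0.00 and 0.49 on the control arrays, 0.60, 1.21 and 0.44 after 1 day, and 0.67, 0.10 and -0.98 after 7 days. The FA 1 day and control arrays overlapped, since FA 1 day replicate 4 lay below control replicate 3, where the low spot of miR-17-3p is. The FA 7 days arrays ran from below the controls into the range of FA 1 day.

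The other products of these clusters were mostly too dim to follow. Of 18 listed relatives, all with a probe, 15 were not detected on every array of any group and were not tested, among them miR-92a-3p (1 of 9 arrays), miR-363-3p and miR-18b-5p (0 of 9). The 3 tested were miR-25-3p, which has another seed and shares the miR-106b precursor, miR-25-5p and miR-106b-3p. miR-25-3p differed from control by 0.46 ± 0.41 after 1 day and 1.13 ± 0.41 after 7 days (limma, adjusted p = 0.801 and 0.701), and was detected on 2 of 3 control arrays. Without control replicate 2 these differences were -0.048 and 0.62. miR-106b-3p differed by 0.16 ± 0.19 and 0.31 ± 0.19, and without that array by -0.0083 and 0.14. miR-25-5p differed by -0.12 ± 0.20 and 0.00 ± 0.20. None of the 3 was called in any comparison.

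Embryonic stem cell miRNAs of the miR-290 and miR-302 clusters have seeds that resemble the miR-17 seed. Of 10 listed, 3 were tested. miR-291b-3p lay at 7.02 ± 0.25 in control, 7.81 ± 0.14 after 1 day and 7.21 ± 0.28 after 7 days (n = 3 each). It was 0.79 ± 0.21 higher after 1 day, which did not pass (limma, adjusted p = 0.636). miR-290-3p and miR-302a-3p differed by -0.28 ± 0.31 and -0.19 ± 0.44, and without control replicate 2 by -0.041 and 0.27. Their probes' binding to members with a like sequence was not tested.

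Of the 453 tested probes outside the families, the 3 whose deviations were most like the mean of the members with the miR-17 seed over the 9 arrays were miR-15b-5p (root mean square difference 0.11), miR-421-3p (0.14) and miR-144-5p (0.19), against a median of 0.54 over the 453. miR-15b-5p, a miRNA of the miR-15 and miR-16 family that restrains the cell cycle, deviated by 0.02, -0.61 and -0.17 on the control arrays, by 0.56, 0.47 and 0.27 after 1 day, and by 0.22, 0.17 and -0.94 after 7 days. miR-144-5p, from a gene of red blood cells, was not detected on any control array and was detected on all 3 FA 1 day arrays and 2 FA 7 days arrays. It thus passed the filter only through FA 1 day, as did miR-20b-5p, which is part of the seed mean. All 3 share with the seed mean its lowest array, FA 7 days replicate 3. The points of these comparisons share 9 arrays and their signal, and no p is given for them.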

How the data were processed

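Total RNA of the olfactory bulb was labelled with the dye Hy3 and hybridised to Exiqon miRCURY arrays, 1 colour per array, per the labels' protocols. The authors deposited intensity values for 12312 spots per array, with and without background subtraction per the file headers (2673 probes, 1027 of them mouse miRNAs), and a value table named as a ratio. For 100% of listed values that ratio was within 1% of a probe's median spot divided by 1 factor per array; it is linear, values at or under 0 are blank (18 to 1318 probes per array), column medians run from 0.0196 to 0.160, and it was used as an alternative. No label states a slide or scan day, so no batch was tested.

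From the raw table, background was corrected per spot with normexp (offset 50; R 4.3.3, limma 3.58.1), the spots of a probe averaged, quantile normalization applied over 1084 miRNA probes and log2 taken. Quantile normalization hides a shift shared by most miRNAs. Groups were compared over all 9 arrays in 1 limma fit (lmFit, eBayes), two-sided, with Benjamini-Hochberg adjustment over 462 probes and a threshold of 0.05. If the arrays are not separate animals, p-values measure only technical spread. The number of arrays limits the precision: the median 95% interval reached 0.62 (log2) to either side. Median background was 35 to 49 and the median signal of the 351 probes detected on all arrays 224 to 441. No pair of arrays shared more than 10.7% of spot values, so all were kept.

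The bound "at least 8.01-fold" sets the highest array of miR-20a-5p against its undetected array, FA 7 days replicate 3. That array is taken at its own value or, if higher, at the lowest value of any detected probe on it. Named are all members, the tested probes of fixed lists of relatives and embryonic miRNAs, and the 3 probes most like the miR-17 seed mean. Members and lists were chosen with earlier results of these data known. Probe names come from the array's design; sequences, coordinates and genes are from RefSeq (GRCm38.p6), since the files name no build. The pipeline was tested on simulated data. Changes of 1 and 2 (log2) were recovered for 93.33% and 100% of the changed probes, with median estimates of 0.788 and 1.548. Of 402 unchanged probes 10 were called. The simulated spread between arrays was smaller than that of the typical tested probe here, whose difference had a median SE of 0.27 (log2). It was smaller still than that of the most variable members. The recovered shares therefore overstate what the test could find in these data. Alternatives changed the normalization, background correction, spot summary, filter, arrays and fit; using only blocks 1 to 18 or only blocks 19 to 36, and counting members without miR-20b-5p, were added after seeing the data.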

Additional observations from a re-analysis of the deposited data

How the results depend on the processing

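Across 27 differences (9 members, 3 comparisons) no member was called in 243 values with 1 array left out (12 turned sign) or in 420 values under 16 other settings (29 turned sign). With limma 0 probes passed in each comparison, and 7 passed in FA 7 days minus FA 1 day with array weights, none of them a member. Leaving out 1 array gave 0 to 1 calls in FA 1 day minus control, FA 7 days minus control and the F-test, the 1 without control replicate 3. With median scaling the median of all 462 probes was 0.34 in FA 1 day minus control and 0.26 in FA 7 days minus control. With no normalization it was -0.11 and -0.09. Relative to it the median of the 8 members without miR-20b-5p was 0.65 and 0.20 under both, against 0.58 and 0.09 as reported. The values under both are equal by construction, since median scaling shifts all probes of an array alike. The members' differences that turned sign, with causes not tested, follow. In FA 1 day minus control, miR-17-3p had 0.056 with median scaling and 0.14 from blocks 19 to 36, and miR-106b-5p had -0.074 with the replicate number as a block and -0.44 from blocks 1 to 18. In FA 7 days minus control, median scaling gave 0.26 for miR-17-5p, 0.26 for miR-20a-5p and 0.30 for miR-106b-5p. There miR-17-3p had -0.23 with no normalization, -0.061 with cyclic loess, -0.043 with the median of spots, -0.17 with the deposited ratios and -0.030 with array weights. miR-20b-5p had -0.19 with no normalization and -0.059 with the deposited ratios. With array weights miR-17-5p and miR-20a-5p had 0.48 and 0.55, and without both arrays that stand apart 0.49 and 0.70. In FA 7 days minus FA 1 day, miR-19b-3p had 0.078 with no normalization, 0.14 with the deposited ratios, 0.028 with array weights, 0.14 without both arrays and 0.029 from blocks 19 to 36. miR-19a-3p had 0.0088 with the replicate block, 0.12 with array weights, 0.28 without both arrays and 0.22 from blocks 1 to 18, where miR-106b-5p had 0.23; miR-17-3p had -0.031 from blocks 19 to 36. The replicate block called 0 probes in each comparison. Same-numbered arrays correlated in their deviations from the group means by -0.58 to 0.33, which cannot tell whether they share more than a number.

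With 1 array left out, the values in FA 1 day minus control ran from -0.32 to 0.053 for miR-17-3p and from -0.011 to 0.15 for miR-106b-5p. In FA 7 days minus control they ran from -0.44 to 0.44 for miR-17-5p, -0.18 to 0.19 for miR-17-3p, -0.56 to 0.76 for miR-20a-5p, -0.077 to 0.33 for miR-20b-5p and -0.21 to 0.62 for miR-93-5p. In FA 7 days minus FA 1 day they ran from -0.28 to 0.28 for miR-19a-3p and -0.28 to 0.14 for miR-19b-3p. With miR-20b-5p included, the median over the 9 members in FA 7 days minus control ran from 0.026 to 0.49 and that over the miR-17 seed from -0.17 to 0.46, both highest without FA 7 days replicate 3. Dim probes limit what can be said: miR-18a-5p was not above the detection limit on any array, and miR-20b-5p was near it.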
